A study of Rattus norvegicus with 12 samples.

Results

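The nuclear genes of oxidative phosphorylation were examined in rat prefrontal cortex (PFC) after acute footshock stress. Members were the genes whose symbol on the array began with Nduf, Sdh, Uqcr, Cox4, Cox5, Cox6, Cox7, Cox8 or Atp5, each represented by its brightest probe set with a single symbol, provided that its mean log2 value over the 12 arrays was above 4. The prefixes matched 99 genes, and 97 of them passed the level, out of 14847 genes (16085 probe sets) that could be tested in the same way. Ndufb4l3, with a mean of 3.89, and Ndufb4, with a mean of 3.60, lay below the level, and Cox8b, with a mean of 4.03, lay just above it. The members were sorted by role into 31 subunits of complex I, 4 of complex II, 8 of complex III, 16 of complex IV (Ndufa4 among them), 16 of complex V, 10 assembly factors, 2 associated factors (Atp5if1 and Cox7a2l), and 10 annotated copies, which are pseudogenes or gene duplicates that carry the name of a subunit.

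Adult male Sprague-Dawley rats of the Stress group (6 rats) received inescapable footshock through the cage floor for 40 min (0.8 mA, 20 min of actual shock, with 2 to 8 s between shocks), and the Control group (6 rats) stayed in the home cage. Both groups were killed 2 h after the session began, and the PFC of each rat was hybridised to 1 Affymetrix Rat Gene ST array, a whole-transcript array. The deposited values are log2 expression from robust multi-array averaging (RMA). The arrays correlated with each other between 0.991 and 0.998 across probe sets, their medians ran from 5.48 to 5.54, and 0 pairs were identical. All 10 neuronal markers looked up were measured above the level of 4. The dimmest 10% of the probe sets, an index of background signal, put Control 1 to 4 in one array set and Control 5, Control 6 and all 6 Stress arrays in another, array set 2. This division was made after the values had been seen. Array set and group therefore overlap in part. Differences within array set 2 (2 controls against 6 stressed rats) are given beside the differences of many genes chosen by rule. For these genes they are given where they moved by more than 1.5-fold or changed sign, and beside most others of small p. Other named genes carry no such value. Among them, Ndufs1, Uqcrb and Atp5mc2 changed sign within array set 2. Ndufs5 and Ndufs7 moved by more than 1.5-fold there, all read from the brightest probe sets. Of the 2 controls, Control 5 alone was high in choroid plexus markers, and Control 6 was the highest array for the mean of the complex III subunits. Effects of the array set and of these 2 controls cannot be told apart in such differences.

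Oxidative phosphorylation is the mitochondrial process that makes most of the ATP of neurons. Complex I (NADH dehydrogenase) and complex II (succinate dehydrogenase) feed electrons into the chain, complex III (cytochrome bc1) and complex IV (cytochrome c oxidase) pass them on to oxygen, and complex V (ATP synthase) uses the resulting proton gradient. Most subunits are encoded in the nucleus and a few in mitochondrial DNA, and assembly factors help to build the complexes without being part of them. Nuclear respiratory factor 1 (NRF1), the GA-binding protein (GABPA is its DNA-binding subunit), YY1 and SP1 are known regulators of nuclear genes for the respiratory chain.

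Promoter windows were read from the RefSeq table of the GRCr8 assembly, from 250 bases before to 50 bases after each gene start, and 82 of the 97 members had one. Each window was searched on both strands for 1 core motif per factor, namely GCGCATG for NRF1, CGGAAGT for GABPA, ATGGCGG for YY1 and GGGCGGG for SP1. None of these motifs is contained in another. The NRF1 motif occurred in 14 of the 82 member windows (17.1%), against 3.94% of all 27457 promoter windows. The GABPA motif occurred in 17 (20.7% against 6.70%) and the YY1 motif in 16 (19.5% against 5.22%). The SP1 motif occurred in 18 windows (22.0%), close to its share of 24.2% in all windows. At least 1 of the 4 motifs stood in 46 of the 82 windows, and in 32.9% of all windows. These are matches of letters, with no test of binding. The comparison windows were not limited to genes expressed in PFC or to protein-coding genes. Whether the shares are particular to the members was not tested. By complex, at least 1 motif stood in 19 of 29 windows of complex I and 3 of 4 of complex II. The counts were 4 of 6 for complex III, 4 of 13 for complex IV and 10 of 15 for complex V. The YY1 motif stood in 9, 1, 2, 0 and 2 windows of complexes I to V, in that order.

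**Figure D1:**
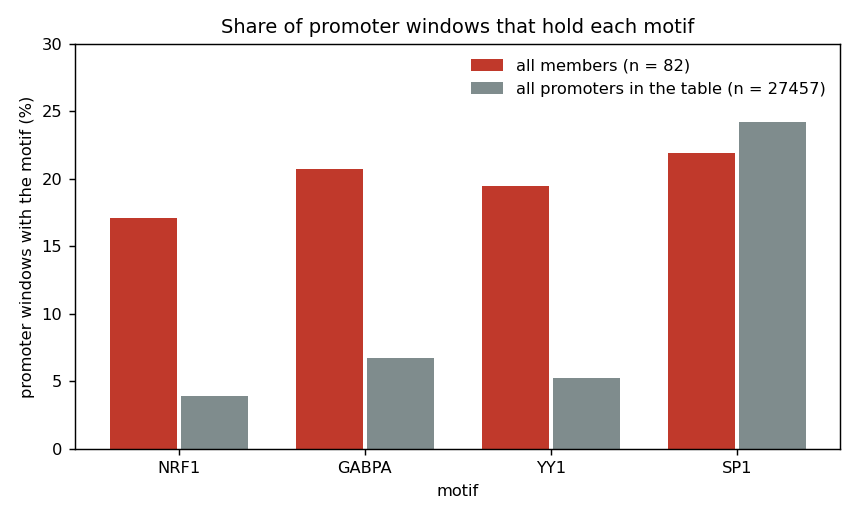
Percentage of promoter windows (y axis) that hold the core motif of each factor (x axis), for the 82 members with a window and for all 27457 windows of the table. The bars of the members stand above those of all windows for NRF1, GABPA and YY1, and slightly below for SP1 (22.0% against 24.2%).

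The 250 bases before the gene start are shown for 4 members, to set windows with both the NRF1 and the GABPA motif beside windows of the 2 genes with the smallest p. Capitals mark a motif on either strand. Uqcrc1, a core protein of complex III, lies at chr8:118467973-118468222 (plus strand), with the NRF1 motif followed by the GABPA motif. Atp5me, subunit e of ATP synthase, lies at chr14:1464610-1464859 (plus strand), with a GABPA motif and 2 NRF1 motifs that overlap on opposite strands. Ndufaf7, a complex I assembly factor, lies at chr6:21871966-21872215 (minus strand), with the GABPA motif on the opposite strand. Cox6a2, a subunit isoform of complex IV, lies at chr1:192219717-192219966 (minus strand) and held none of the 4 motifs in this stretch.
Uqcrc1: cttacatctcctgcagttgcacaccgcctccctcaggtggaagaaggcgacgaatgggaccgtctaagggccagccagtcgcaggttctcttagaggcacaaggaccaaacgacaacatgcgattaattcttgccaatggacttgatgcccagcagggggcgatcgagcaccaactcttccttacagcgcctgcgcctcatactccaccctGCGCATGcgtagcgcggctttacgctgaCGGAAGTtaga
Atp5me: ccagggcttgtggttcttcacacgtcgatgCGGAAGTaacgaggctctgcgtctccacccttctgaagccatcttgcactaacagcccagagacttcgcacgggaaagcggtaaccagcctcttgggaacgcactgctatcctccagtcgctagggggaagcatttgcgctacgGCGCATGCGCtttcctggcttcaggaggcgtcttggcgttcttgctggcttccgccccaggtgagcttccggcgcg
Ndufaf7: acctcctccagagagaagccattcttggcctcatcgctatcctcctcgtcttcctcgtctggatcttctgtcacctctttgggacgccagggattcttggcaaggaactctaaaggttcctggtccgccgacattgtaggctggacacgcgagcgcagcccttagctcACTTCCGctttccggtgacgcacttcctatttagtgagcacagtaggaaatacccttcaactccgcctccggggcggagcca
Cox6a2: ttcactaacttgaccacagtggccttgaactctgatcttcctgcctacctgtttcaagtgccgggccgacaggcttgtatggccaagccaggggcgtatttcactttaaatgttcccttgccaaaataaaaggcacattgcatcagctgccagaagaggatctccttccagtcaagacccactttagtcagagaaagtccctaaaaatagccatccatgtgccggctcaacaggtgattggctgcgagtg

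The comparison of Stress with Control addressed whether expression of the members differed 2 h after the start of stress. None of the 97 members passed an adjusted p of 0.05 in limma, and the smallest adjusted p was 0.468, for Cox6a2. Over all probe sets tested, 7 of 16085 passed (0.0435%). At an unadjusted p under 0.05 there were 9 members (9.28%), beside 6.35% of all probe sets. Of these, 6 had a higher mean in Stress (3.43% of all probe sets did) and 3 a lower mean (2.92% of all). Cox8b, 1 of the 3, passed the level of 4 only through Control, with a mean of 4.08 there and 3.98 in Stress. With every array required to lie above 4, the count was 8 members (8.42%), beside 6.30% of all probe sets. In none of the members did the ranges of the groups separate, which happened in 0.441% of all probe sets. The mean was higher in Stress for 63 of 97 members (64.9%), against 53% of all probe sets. Because the tissue is bulk PFC, fewer cells of a type and less RNA per cell cannot be told apart in these values.

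The members differed little in size. Their log2 differences, Stress minus Control, ran from −0.19 to 0.19 with a median of 0.017, and the median over all probe sets tested was 0.0039. The 95% interval lay within a 1.2-fold change in either direction for 89 of the 97 members (91.8%), as it did for 90.3% of all probe sets, and within a 1.5-fold change for all 97. Standard errors of the members ranged from 0.026 to 0.16 with a median of 0.041. Within array set 2 the median of the members was −0.0013, with 48 of 97 higher in Stress. Over all probe sets the median there was −0.0034, with 48.3% higher in Stress. There, 3 members had an unadjusted p under 0.05 (6.57% of all probe sets did). Leaving out single arrays moved the count of such members from 9 to 15 without Control 6 (15.5%, beside 9.28% of all probe sets). The count was 5 (5.15%) without Control 4 (5.93% of all) or without Stress 2 (5.66% of all). In any of these fits, 0 members passed the adjusted threshold.

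**Figure D2:**
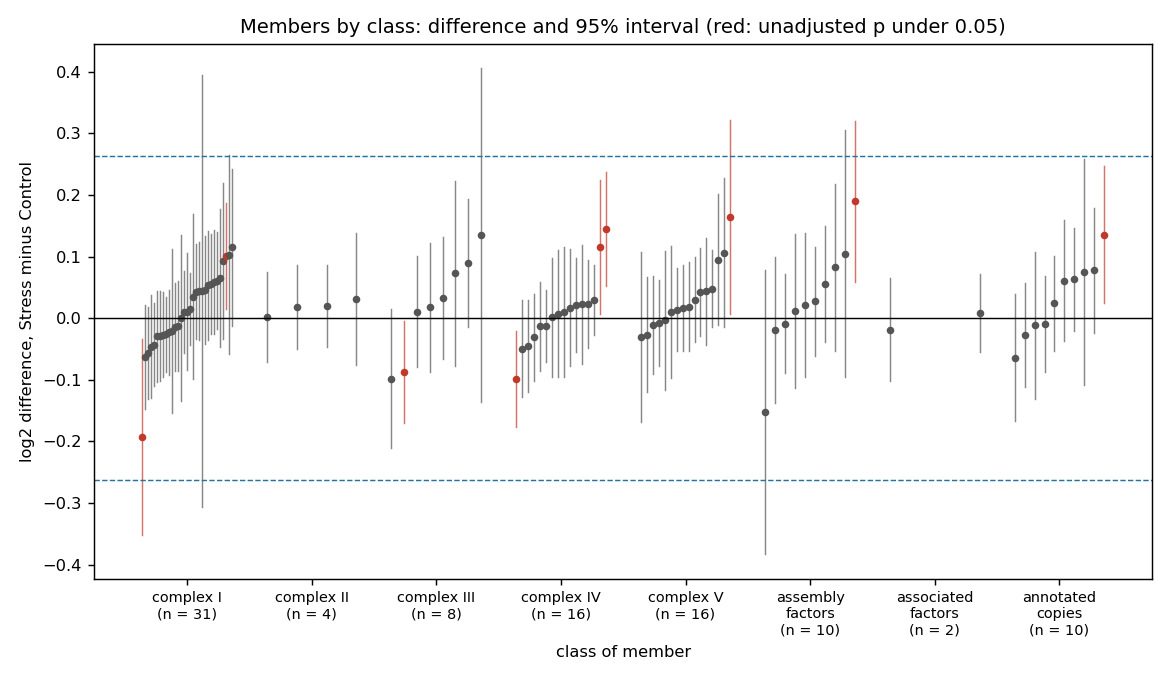
Log2 difference, Stress minus Control, with its 95% interval from limma (y axis), for every member grouped by class (x axis), ordered by size within a class. Dashed lines mark a 1.2-fold change in either direction, and the 9 members in red had an unadjusted p under 0.05, none of which passed adjustment.

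By complex, the mean was higher in Stress for 18 of 31 subunits of complex I, 4 of 4 of complex II, 6 of 8 of complex III, 10 of 16 of complex IV and 11 of 16 of complex V. The median differences were 0.011, 0.019, 0.025, 0.0085 and 0.018, in that order. Leaving out single arrays moved the median of complex I between −0.0040 (without Stress 6) and 0.020 (without Stress 1), of complex II between 0.0075 (without Stress 5) and 0.024 (without Stress 3), of complex III between 0.014 (without Control 4) and 0.051 (without Stress 3), of complex IV between −0.0031 (without Control 6) and 0.017 (without Control 5) and of complex V between 0.0088 (without Control 4) and 0.031 (without Stress 3). For the 75 subunits together 49 were higher, with a median of 0.017. Among the 10 assembly factors 7 were higher, with a median of 0.024 (0.015 without Control 3 and 0.039 without Control 6). When the centred log2 values of a class were averaged within each array, the 75 subunits differed by 0.017 between groups (SD 0.029 in Control and 0.028 in Stress, n = 6 each) and the assembly factors by 0.031 (SD 0.060 and 0.039). The difference in every class was close to or smaller than the spread between rats, and the groups overlapped in every class. Complex V stood at 0.032 (SD 0.028 and 0.034), with 4 of 6 Stress arrays above all 6 controls.

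**Figure D3:**
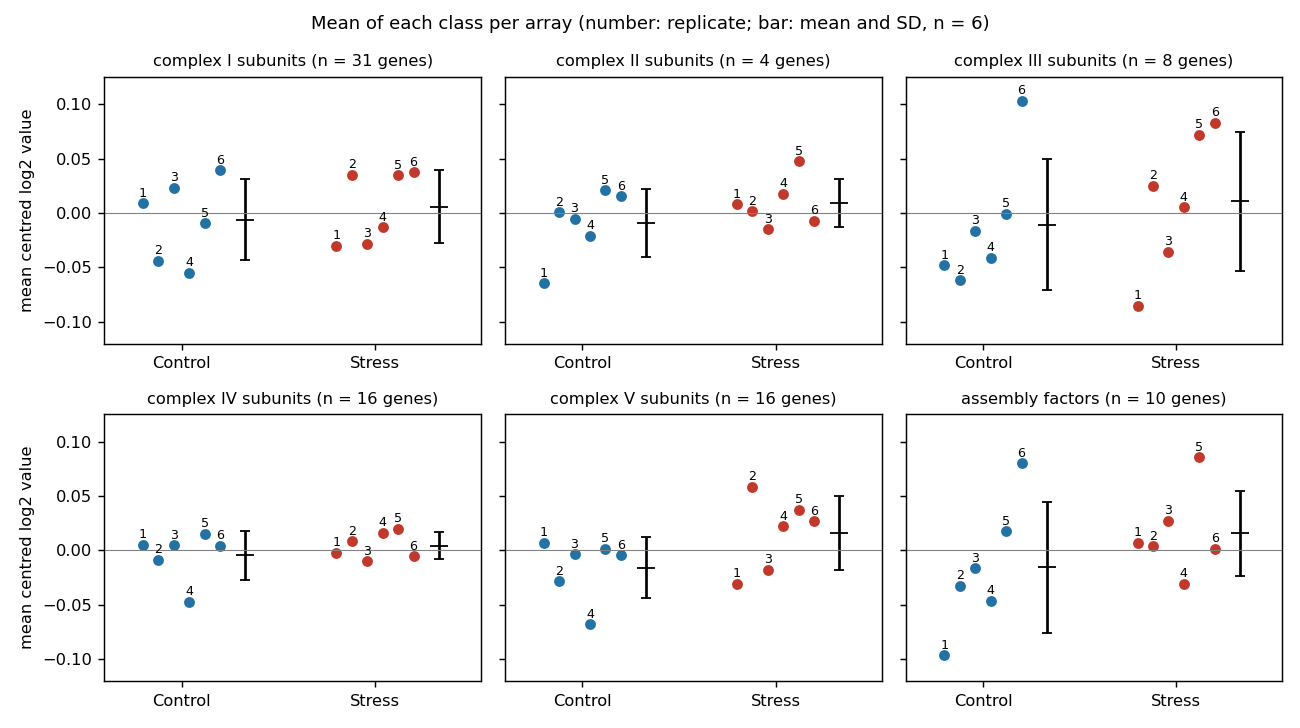
Mean centred log2 value of each class (y axis, 1 point per array, numbered by replicate) in Control and Stress (x axis), with the mean and SD of each group (n = 6). Control 6 is the highest array for complex III, at 0.10, and Control 1 is the lowest for the assembly factors, at −0.096.

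The class means also differed between the array sets. The class mean over all 97 members was −0.024 in array set 1 (4 controls), 0.018 in the 2 controls of array set 2 and 0.0098 in the 6 Stress arrays. Within array set 2 the class mean was lower in Stress by a log2 difference of −0.0091 for complex I, −0.0094 for complex II, −0.041 for complex III, −0.0054 for complex IV and −0.033 for the assembly factors. Complex V kept a higher mean there, by 0.017.

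Complex I takes electrons from NADH and is the largest complex of the chain. Of its 31 measured subunits, Ndufa3, an accessory subunit of the membrane arm, had the most negative difference. Its log2 values were 9.21, 9.11, 9.41, 9.14, 9.24 and 8.91 in Control 1 to 6 and 9.08, 8.92, 9.13, 8.91, 8.98 and 8.84 in Stress 1 to 6. The Stress values were thus mostly in the lower part of the range, with Control 6 among them. The difference was −0.19 (SE 0.074, limma adjusted p = 0.700) and −0.097 within array set 2. Ndufa2, an accessory subunit of the matrix arm, ran from 6.86 to 7.002 in Control and from 6.94 to 7.11 in Stress, and 4 of 6 Stress arrays lay above all controls. Its difference was 0.10 (SE 0.040, adjusted p = 0.727 by limma), and 0.076 within array set 2.

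Ndufb3, of the membrane arm, had a difference of 0.12 (SE 0.059, limma adjusted p = 0.811) that came to 0.036 within array set 2. Ndufc2, also of the membrane arm, differed by 0.061 (SE 0.037) and by 0.0066 within array set 2. The 6 core subunits measured, which carry the flavin, the iron-sulphur clusters or the quinone site (Ndufs1, Ndufs3, Ndufs7, Ndufs8, Ndufv1 and Ndufv2), were divided, with 3 higher and 3 lower. Among them Ndufs1, of the NADH-oxidising part, differed by 0.059 (SE 0.039), and Ndufs7, next to the quinone site, by −0.064 (SE 0.039).

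Complex II links the citric acid cycle to the chain, and all 4 of its subunits were measured. Sdha, the flavoprotein, had log2 values from 9.50 to 9.53 in Control and from 9.46 to 9.58 in Stress, so that 4 Stress arrays lay above and 2 below every control. Its difference was 0.020 (SE 0.031). Sdhb, the iron-sulphur subunit, differed by 0.018 (SE 0.032) and by 0.030 within array set 2, Sdhc, a membrane anchor, by 0.0020 (SE 0.034) and Sdhd, the other anchor, by 0.031 (SE 0.050). All 4 intervals lay within a 1.2-fold change. Within array set 2 the signs of Sdhc (−0.044) and Sdhd (−0.051) were reversed.

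Complex III hands electrons from ubiquinol to cytochrome c, and its members differed in both directions. Uqcr11, a small accessory subunit, had values of 11.19, 11.14, 11.15, 11.18, 11.14 and 11.24 in Control and 10.99, 11.11, 10.99, 11.08, 11.17 and 11.16 in Stress, with 4 of 6 Stress arrays below all controls. The difference was −0.087 (SE 0.039, limma adjusted p = 0.769), and −0.10 within array set 2. Uqcrh, the hinge protein, differed by −0.098 (SE 0.052), or −0.055 within array set 2, and its Stress 6 value of 10.20 lay apart from the other 5. Without Stress 6 the difference was −0.052. Uqcr10, a subunit next to cytochrome c1, differed by 0.089 (SE 0.048) and by 0.095 within array set 2.

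Uqcrfs1, the Rieske iron-sulphur protein, varied widely in both groups. Its values were 7.63, 7.54, 7.44, 7.67, 7.71 and 8.25 in Control and 7.54, 7.77, 7.80, 7.80, 7.93 and 8.21 in Stress. The array numbered 6 was the highest of each group. The difference of 0.13 (SE 0.13) was 0.062 without Stress 6 and 0.24 without Control 6. It turned to −0.14 within array set 2, which holds Control 6 as 1 of 2 controls.

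Complex IV holds several subunits with tissue-specific isoforms. Cox6a2, the isoform best known from heart and skeletal muscle, had the smallest p of all members. Its values were 6.00, 5.93, 5.96, 5.82, 5.86 and 6.01 in Control and 6.01, 5.99, 6.08, 6.16, 6.06 and 6.15 in Stress, with 4 of 6 Stress arrays above all controls and the other 2 within the control range. The difference was 0.14 (SE 0.043, 95% interval 0.052 to 0.24, limma adjusted p = 0.468), and it was 0.14 within array set 2. Its ubiquitous partner Cox6a1 differed by 0.022 (SE 0.045). Cox7c, an accessory subunit, ran from 10.39 to 10.65 in Control and from 10.54 to 10.76 in Stress, with a difference of 0.12 (SE 0.051, adjusted p = 0.758 by limma) and 0.053 within array set 2.

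Cox8b, another heart and muscle isoform, differed by −0.099 (SE 0.036, limma adjusted p = 0.669), and by −0.13 within array set 2. Its values lay at the lower limit of the level used, from 3.98 to 4.18 in Control and from 3.92 to 3.99 in Stress, where changes are understated. The ubiquitous Cox8a differed by −0.013 (SE 0.034), with 0 Stress arrays outside the control range. Cox4i1, the main isoform of subunit 4, differed by 0.022 (SE 0.036) and Cox4i2, known from lung and for its response to low oxygen, by 0.017 (SE 0.044). Cox6b1 differed by −0.012 (SE 0.027) and Cox6b2, the testis isoform, by 0.0073 (SE 0.048). Cox7a2 differed by −0.031 (SE 0.033), and its partner Cox7a1 was not analysed here. Cox5a, a matrix-side subunit, differed by −0.049 (SE 0.037) and Cox6c, an accessory subunit, by 0.029 (SE 0.026). In each isoform pair with both members measured the interval of the difference lay within a 1.2-fold change for both. Within array set 2 the differences were 0.076 for Cox6a1, 0.053 for Cox8a, −0.024 for Cox4i1, −0.035 for Cox4i2, −0.0063 for Cox6b1, 0.014 for Cox6b2, −0.065 for Cox7a2 and 0.0046 for Cox6c.

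Complex V makes ATP. Atp5me, subunit e of its membrane part, had values of 6.48, 6.09, 6.17, 6.11, 6.28 and 6.34 in Control and 6.16, 6.50, 6.48, 6.35, 6.48 and 6.47 in Stress. Control 1 and Stress 1 ran against the other arrays of their groups. The difference was 0.16 (SE 0.073, limma adjusted p = 0.769), and the 8 arrays of array set 2 gave 0.10. Atp5mg, subunit g, which stands beside subunit e at the dimer interface, differed by 0.11 (SE 0.056), and 0.11 within array set 2. Atp5po, the stalk protein that joins the catalytic head to its stator, differed by 0.095 (SE 0.050), and 0.094 within array set 2. The 3 genes share the NRF1 motif in their promoter windows with Atp5mc2, a subunit of the proton-conducting ring. The Atp5mc2 difference was −0.031 and changed sign within array set 2. The other 11 windows of complex V held no NRF1 motif. Outside complex V, the members with this motif had differences from −0.045 (Cox8c) to 0.035 (Ndufb8). Whether the motif bears on the differences was not tested. The catalytic Atp5f1b differed by 0.048 (SE 0.029) and Atp5f1d, of the central stalk, by 0.014 (SE 0.032), or 0.042 within array set 2.

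**Figure D4:**
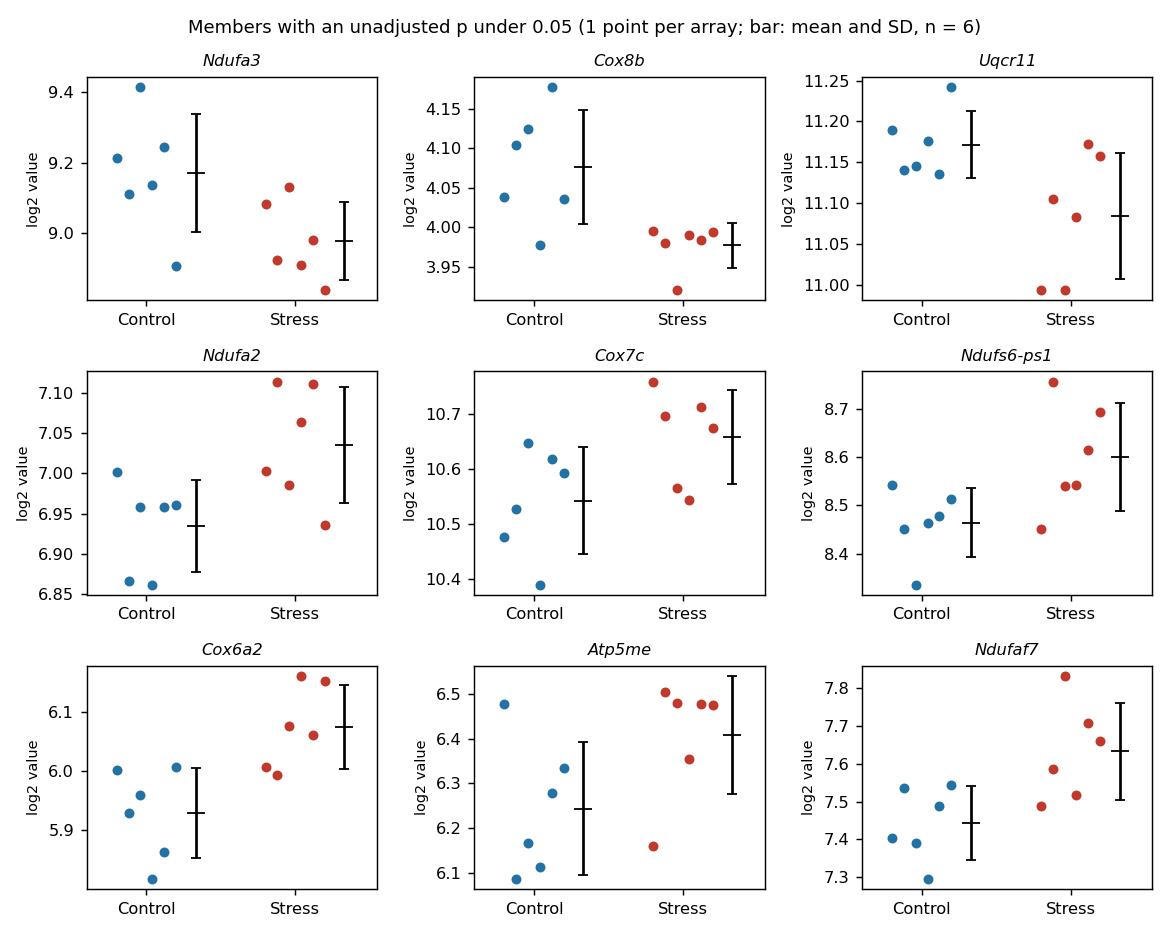
Log2 value per array (y axis, with its own scale per gene) of the 9 members with an unadjusted p under 0.05, in Control and Stress (x axis), with mean and SD (n = 6). The groups overlap in each panel, and none of the 9 passed the adjusted threshold. Cox8b lay below the level of 4 in every Stress array.

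The assembly factors comprised 7 for complex I and 3 for complex II. Ndufaf7, a methyltransferase of the complex I assembly pathway, had the most positive difference of all members. Its values were 7.41, 7.54, 7.39, 7.30, 7.49 and 7.54 in Control and 7.49, 7.59, 7.83, 7.52, 7.71 and 7.66 in Stress, with 4 of 6 Stress arrays above all controls. The difference was 0.19 (SE 0.061, limma adjusted p = 0.581) and 0.12 within array set 2. A second probe set for Ndufaf7 differed by 0.088 (SE 0.043, adjusted p = 0.803 by limma). Ndufaf6, also a complex I factor, differed by −0.15 (SE 0.11) and by −0.30 within array set 2, and its control values ran from 4.98 to 5.55. Sdhaf3, which helps to mature the iron-sulphur subunit of complex II, differed by 0.083 (SE 0.063) and by −0.056 within array set 2. The interval lay inside a 1.2-fold change for 7 of the 10 factors and for 70 of the 75 subunits, and the median standard errors were 0.057 and 0.039.

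Subunits and copies with several probe sets gave a view of how far probes of one gene differed. For 12 of the members more than 1 probe set passed the level, 28 in all. In 10 of these 12 genes all probe sets had the same direction, and the largest range of differences within a gene was 0.10. Cox7a2 was 1 of the 2 exceptions, with differences of −0.031, −0.014 and 0.054. The 3 probe sets of Ndufs5, an accessory subunit, differed by 0.10, 0.11 and 0.097, and those of Uqcrb, a ubiquinone-binding subunit, by 0.073, 0.069 and 0.079. Among the 10 annotated copies 6 were higher in Stress, with a median difference of 0.043. Ndufs6-ps1, named here after its values had been seen, differed by 0.14 (SE 0.052, limma adjusted p = 0.700), with a second probe set at 0.15 (SE 0.048). RefSeq lists it as a pseudogene named after Ndufs6, a complex I subunit with no single-symbol probe set of its own here, and whether the probes also detect the parent gene was not tested.

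Variation between arrays was in part shared among some of the members. The SD over the 12 arrays ran from 0.024 to 0.32 with a median of 0.070, and the median over all probe sets was 0.085. Ndufb2, an accessory complex I subunit singled out after its values had been seen, had the highest SD, with values from 6.23 to 7.28 in Control and from 6.69 to 7.31 in Stress. The first principal component held 35.9% of the variance of the members and the second 15.0%. On the first, 73 members had a positive and 24 a negative weight. Values were centred per gene but not scaled, so members of large SD can weigh most. The weights ran from −0.23 (Ndufa3) to 0.42 (Ndufb2), with Uqcrfs1 at 0.41, and some lay close to zero, such as Ndufb10 at 0.0027. The scores were highest in Stress 6 (1.03) and Control 6 (0.81) and lowest in Control 2 (−0.76). Apart from Control 6, the controls scored from −0.76 to −0.21, and the Stress arrays scored from −0.38 to 1.03. Across the members the weight and the difference between groups, which rest on the same arrays, correlated at 0.68 (Pearson, n = 97 genes, a description). Ndufb2, Uqcrfs1, Ndufs5, the copy Ndufb4-ps1, Atp5me and Ndufb3 weighed most in the positive direction, and Ndufa3, Atp5mc2 and Uqcrh in the negative direction. Of the 9 members with an unadjusted p under 0.05, Atp5me, Ndufs6-ps1 and Ndufa3 were thus among those with the strongest weights.

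**Figure D5:**
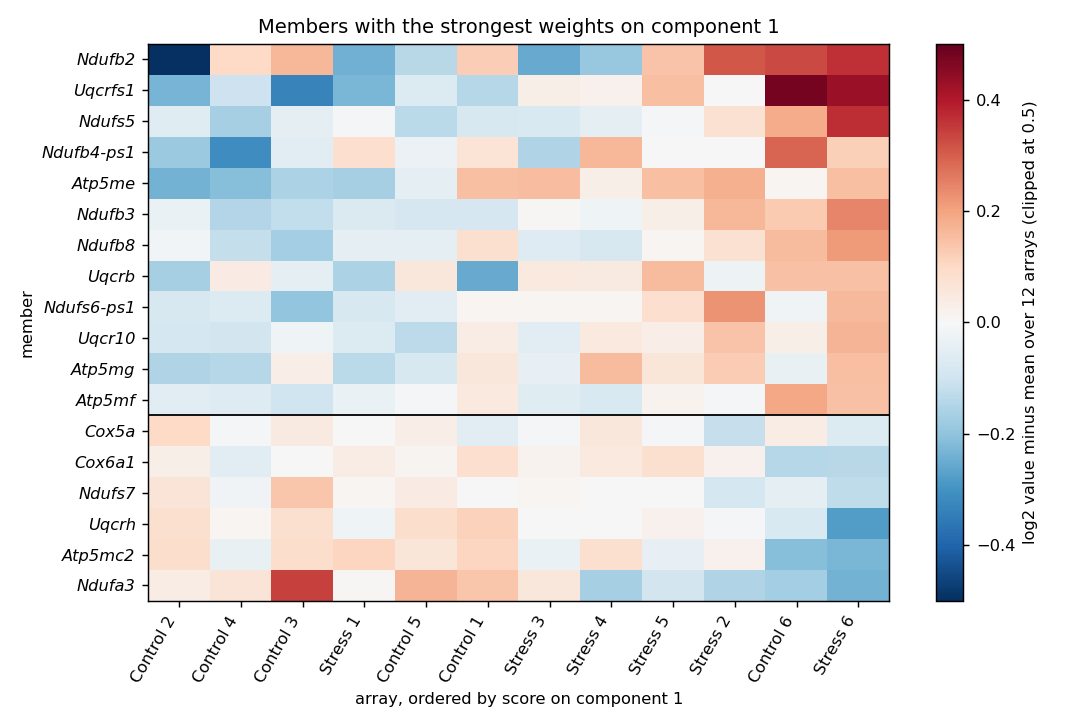
Log2 value minus the mean over the 12 arrays (colour, clipped at 0.5) for the members with the strongest positive weights (above the line) and negative weights (below it) on the first component of the members, with arrays in order of score. Control 6 and Stress 6, from different groups, stand together at the right.

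Other mitochondrial genes were read from the same fit, and 0 passed the adjusted threshold in any of these lists. Of the 13 subunits encoded in mitochondrial DNA, 0 had a single-symbol probe set here. Among 15 further genes of the chain, 9 were higher, and the smallest p belonged to Pdss2, which takes part in ubiquinone synthesis (0.12, SE 0.044, limma adjusted p = 0.683), and Etfb, an electron transfer flavoprotein (0.15, SE 0.059, adjusted p = 0.700 by limma), or 0.080 within array set 2. Of 32 other assembly factors 24 were higher, with a median difference of 0.024. In that list Cox19, a copper-handling factor of complex IV, differed by −0.12 (SE 0.050) and Tmem126a, a complex I factor, by 0.11 (SE 0.063), or 0.063 within array set 2.

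Of 10 citric acid cycle enzymes 6 were higher. Ogdh, of the 2-oxoglutarate dehydrogenase complex, differed by −0.095 (SE 0.035, limma adjusted p = 0.669), with 4 of 6 Stress arrays below all controls, and Suclg1, of succinate-CoA ligase, by −0.11 (SE 0.083), or −0.20 without Stress 1. Of 13 regulators of mitochondrial biogenesis 6 were higher, with all 13 intervals within a 1.2-fold change. The coactivator Ppargc1a differed by −0.047 (SE 0.038), or −0.12 within array set 2, and the mitochondrial RNA polymerase Polrmt by 0.041 (SE 0.034), or 0.027 within array set 2. Among 10 carriers and uncoupling proteins 7 were higher, and Ucp2, an uncoupling protein, differed by −0.19 (SE 0.078, limma adjusted p = 0.738), or −0.19 within array set 2, and Ucp3 by 0.090 (SE 0.054), or 0.021 within array set 2. The 64 mitochondrial ribosomal proteins had a median of 0.0098 and the 105 cytosolic ones a median of 0.0063.

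Markers of other cells also differed between the arrays, with 0 past the adjusted threshold. An unadjusted p under 0.05 in limma was found for 6.35% of all probe sets, and no overlap of the groups for 0.441%. All 7 oligodendrocyte markers were higher in Stress (median 0.15), 2 of them with an unadjusted p under 0.05. Their class mean ran from −0.33 to 0.21 in Control and from −0.029 to 0.24 in Stress. Aspa was the 1 oligodendrocyte marker whose groups did not overlap, with a difference of 0.45 (SE 0.088, limma adjusted p = 0.137). All 5 red blood cell markers were lower (median −0.71), each with an unadjusted p under 0.05. Their class means ran from −0.58 to 0.95 in Control and from −0.86 to 0.075 in Stress. All 8 choroid plexus markers had lower means, but Control 5 alone had a class mean of 3.11, and no other array exceeded −0.078. All 8 markers of striatal projection neurons were lower (median −0.43), with class means from −0.62 to 1.00 in Control and from −0.64 to 0.77 in Stress. Of 6 endothelial markers 5 were lower (median −0.16), 3 of them with an unadjusted p under 0.05, and 5 of 6 controls had a class mean above all Stress arrays. Of 8 microglial markers 4 were higher (median 0.0026), and 3 of the 8 had an unadjusted p under 0.05. Of 7 astrocyte markers 4 were higher (median 0.013), and of 10 neuronal markers 5 were higher (median 0.0048). None of the astrocyte, neuronal, choroid plexus or striatal markers had an unadjusted p under 0.05. The part of these markers in the differences of the members was not tested.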

How the data were processed

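Expression was measured by Affymetrix Rat Gene ST arrays in PFC of 6 Stress and 6 Control rats, 1 array per rat, and groups were taken from the sample labels. The authors deposited log2 values of each probe set, computed by RMA in oligo 1.58.0 (from the submitters' processing notes), which corrects background, equalises the intensity distributions and summarises probes. A shift shared by most genes is removed by that step, and dim probe sets understate changes. It is not known from the sources used here if RMA was run jointly with arrays of other times. Precision is set by the 12 arrays, which have no read depth.

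Probe sets were named from the platform annotation, in which 18644 had 1 symbol, 962 had several and 9608 were not listed. Symbols were updated by gene identifier through a RefSeq table of GRCr8. Of these, 16085 with a mean above 4 were tested with lmFit and eBayes of limma 3.58.1 (R 4.3.3), two-sided, with group as the only term and Benjamini-Hochberg adjustment over all of them, at an adjusted p of 0.05. The test, level and threshold follow the study's methods. The fit was tested on simulated data with 200 changed genes. Members and lists were chosen with earlier results of these data known. Named genes were the 4 subunits of smallest p in each complex, the 3 such assembly factors, the brightest subunit of each complex, isoform pairs of complex IV, and the 2 genes of smallest p in each other pathway list. Lists are described by counts and medians, with no set test. Class means per array are means of log2 values centred on each gene's mean over the 12 arrays.

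Alternatives were the filter, the median of each array, a further quantile normalization, the mean over probe sets of a gene, a trended and robust eBayes, the replicate number as a block, array sets, and leaving out each array in turn. Clustering of the dimmest 10% of the probe sets put Control 1 alone, so sets were also taken at the largest gap of their first component, a choice made after seeing the data.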

Additional observations from a re-analysis of the deposited data

Results flagged for a closer look

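In groups of 6 arrays, a value was singled out where its gap to the nearest other array exceeded Dixon's 95% limit. With 98 groups checked, chance would do so in about 1 in 20. The mean of the complex III subunits was 0.103 in Control 6, with the next control at −0.00067, and Uqcrfs1 (8.25 in Control 6, next 7.71) and Sdhaf3 (7.40 in Control 6, next 7.16) were high in the same array. Stress 6 was low for Uqcrh (10.20, next 10.46), Cox6a1 (10.18, next 10.34) and Tmem126a (5.75, next 5.94). Stress 5 was high for Sdhd (8.64, next 8.46) and Cox6b1 (10.83, next 10.79). Single arrays also stood apart for Cox8b (3.92 in Stress 3, next 3.98), Cox4i1 (10.50 in Stress 2, next 10.42), Cox4i2 (4.57 in Control 3, next 4.76) and Suclg1 (9.09 in Stress 1, next 8.66).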

How the results depend on the processing

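In all settings tried, 0 members passed the adjusted threshold. The count over all probe sets was 7, ran from 4 to 8 without single arrays, was 10 with arrays centred on their median and 8 with every array above 4 or with the mean of the probe sets of a gene, and was 1 with the array set of the first component as a term and 1 within array set 2. In both of these the medians were −0.0036 for complex I, −0.0087 for complex II, −0.053 for complex III and −0.015 for complex IV. The assembly factors had −0.0082, while complex V kept 0.017. Of the genes chosen by rule, the differences were reversed for Sdhd (−0.051), Sdhc (−0.044), Uqcrfs1 (−0.14), Sdhaf3 (−0.056), Cox4i1 (−0.024), Cox4i2 (−0.035) and Cox8a (0.053). The cause was not tested. With the clustered sets, which leave out or fit Control 1, Sdhc (−0.013), Cox6b2 (−0.010) and Cox8a (0.0011) were reversed. Cox7a2 was 0.0029 as the mean of its probe sets, and Sdhc was −0.00044 with arrays centred on their median. Without single arrays, the differences ran from −0.022 to 0.035 for Cox4i2, from −0.0037 to 0.052 for Cox6a1, from −0.028 to 0.027 for Cox6b2, from −0.036 to 0.0011 for Cox8a, from −0.013 to 0.025 for Sdhc and from −0.0059 to 0.056 for Sdhd.

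The labels do not say whether replicate numbers pair the samples, and the values did not settle it. Deviations of same-numbered arrays from their group means correlated at 0.18, −0.14, 0.17, 0.42, −0.12 and 0.23. Control 1, 4 and 6 correlated best with the Stress array of the same number, and Control 2, 3 and 5 did not. Stress 3, 4 and 6 correlated best with the Control array of the same number, and Stress 1, 2 and 5 did not. With the replicate number as a block, 6 probe sets passed and the smallest adjusted p of the members was 0.240. An unadjusted p under 0.05 in limma was then found for 7.59% of all probe sets, against 6.35% without the block. A shared origin of same-numbered arrays was not tested further.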
